A study of Mus musculus with 3 samples.

Results

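Sox8, Sox9 and Sox10 form the SoxE group of transcription factors, and the open chromatin around these 3 genes was described in oligodendrocyte progenitor cells of mouse. Sites of open chromatin were taken from 3 ATAC-seq peak lists, after peaks of different lists that overlapped by at least 1 bp had been joined into 1 site. A site was a member when it touched the mm10 body of 1 of the 3 genes or the 50000 bp on either side of it. There were 62 such sites of 182865 in the genome, 19 around Sox8, 17 around Sox9 and 26 around Sox10. ATAC-seq tags accessible DNA with a transposase, so the number of fragments piled up over a place follows how often it was open across the cells.

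Each of the 3 groups had 1 library of 50000 cells, panned from cortices of C57BL/6 pups at postnatal day 4 to 7 and then cultured. The control progenitor library, whose label ends in DO and was read as day 0, and the control day 1 library came from cells labelled wild type. The third library came from cells labelled Seh1cKO, a conditional knockout of the nucleoporin gene Seh1, also at day 1. Both day 1 groups had received 60 nM of the thyroid hormone T3 while the growth factors PDGF-AA, bFGF and NT3 were withdrawn. The labels give neither the Cre driver of the knockout, nor the deleted part of the gene, nor how many animals were pooled. Seh1cKO progenitors were not analysed here, so the knockout can be compared with control cells at day 1 only.

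SoxE proteins bind DNA through an HMG box and often act as dimers. In the oligodendrocyte lineage Sox9 is needed early, when neural precursors are specified, and it is also an astrocyte gene. Sox10 is expressed throughout the lineage and switches on myelin genes together with partners such as Olig2 and Myrf. Sox8 is closely related to both and partly shares their work. Sox9 and Sox10 are known for enhancers far from the gene, so distant sites are described along with those at the gene.

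Depth was 23403600 fragments for control progenitors, 18260883 for control day 1 and 10845533 for Seh1cKO day 1, and the lists held 108788, 118441 and 46113 peaks. Seh1cKO depth was thus 59.4% of that of control day 1. Levels below are the summit pileup per 1000000 fragments of the library, written FPM. With 1 library per group there is no test, and no difference between groups has a replicate check. Ratios carry an exact 95% interval for counting error alone. No molecular identifiers were used, so copies of 1 molecule may count more than once. A lower pileup in fewer cells and a lower opening per cell cannot be told apart in such bulk samples. As a check of the labelled cell type, peaks within 1000 bp of the gene start, or of both gene ends where no start was listed, were counted over marker genes. Of 8 oligodendrocyte lineage markers 7 had such a peak in control progenitors, 6 in control day 1 and 5 in Seh1cKO cells, with Cspg4 at none. Of 5 markers each, neurons had 3, 3 and 3, astrocytes 1, 2 and 2, microglia 2, 2 and 1, and endothelial and mural cells 0, 1 and 0. Over all protein-coding genes the shares were 62.3%, 63.1% and 57.7%, so 5 of 8 lineage markers in Seh1cKO cells and 3 of 5 neuronal markers are near the background. The part of other cell types in the levels below was not tested.

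Of the 62 SoxE sites 44 were called in control progenitors, 44 in control day 1 and 21 in Seh1cKO cells. All 3 libraries shared 19 of the 62 sites (30.6%), beside 17.9% over the genome. These shared sites were the strong ones, with median levels of 2.56, 2.79 and 2.40 FPM in the order of the libraries above, beside 1.41, 1.97 and 1.57 at shared sites of the genome. Another 18 sites were called in control progenitors only and 16 in control day 1 only, at median levels of 0.56 and 0.68. Over the genome 58664 and 67543 of 182865 sites had these patterns. No SoxE site was called in Seh1cKO cells only, and 7 were common to both control libraries only, beside 5745 and 12448 over the genome. By gene, 7 of 19 Sox8 sites, 3 of 17 Sox9 sites and 9 of 26 Sox10 sites were shared by all 3 libraries. Weak peaks set this order: at a −log10 q of 5 or more the counts were 6 of 14, 3 of 5 and 7 of 13. At that threshold all 3 libraries shared 33.8% of sites over the genome.

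**Figure D1:**
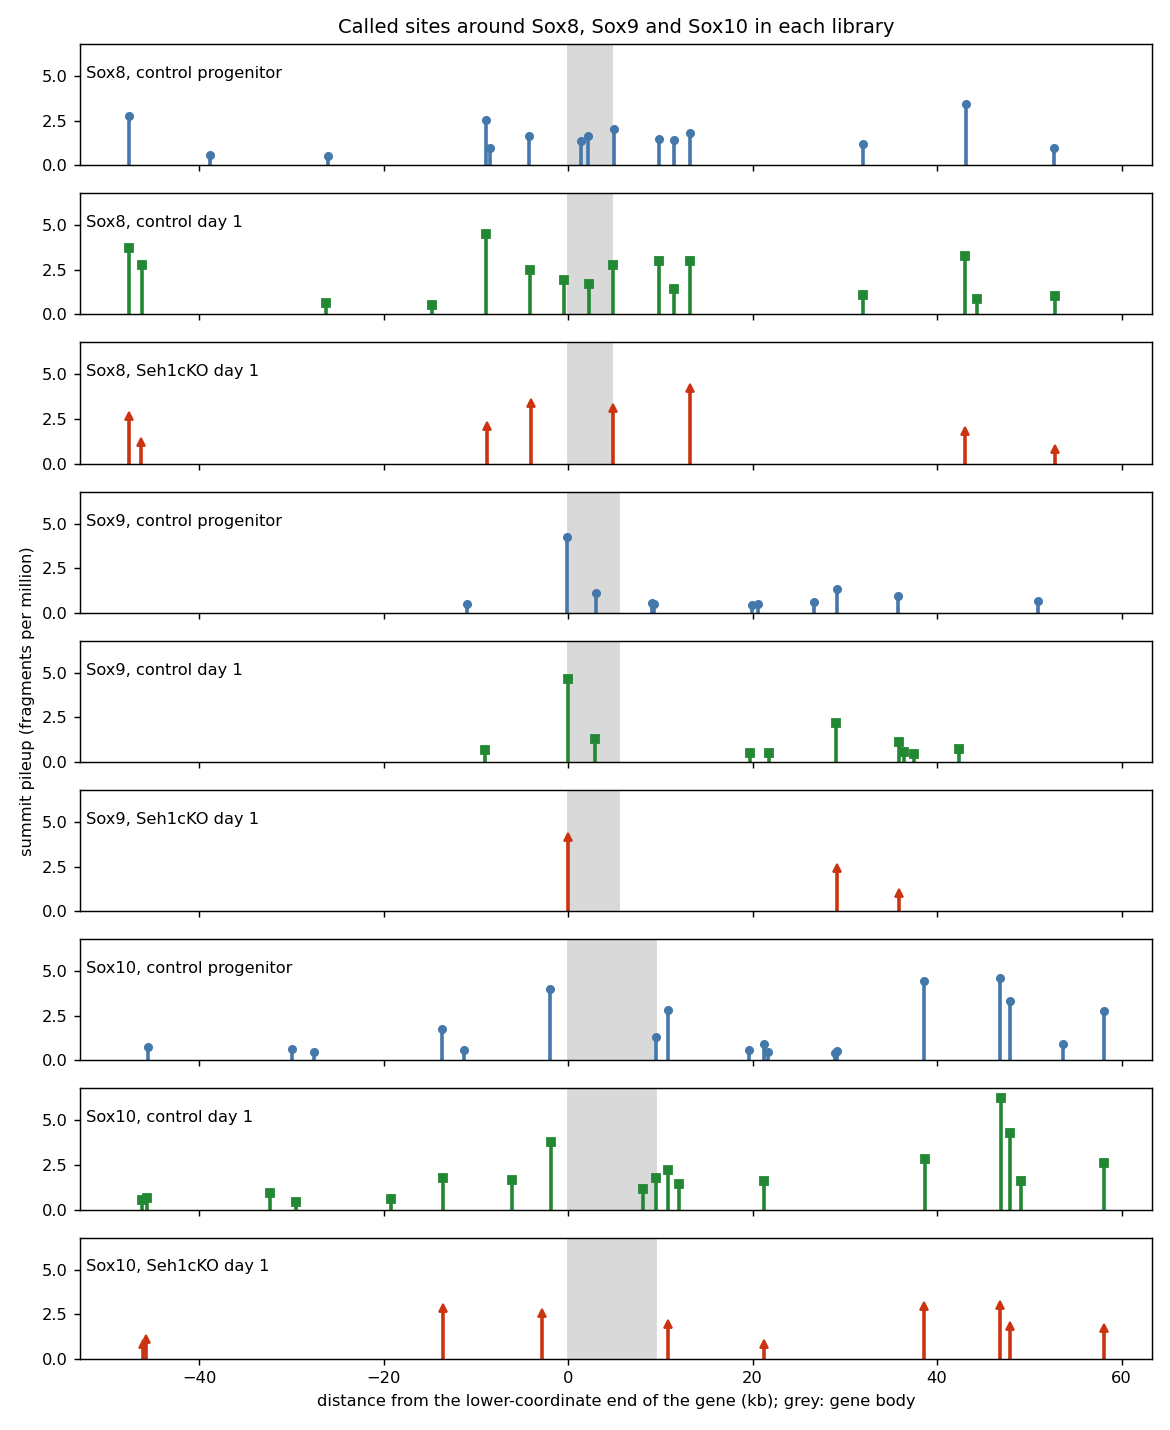
Called sites around Sox8, Sox9 and Sox10, 1 row per gene and library, with kb from the gene's lower-coordinate end on the x axis, the summit pileup in FPM on the y axis and the gene body in grey. Sox9 has 1 tall site at its lower-coordinate end and low sites elsewhere, whereas the tallest Sox10 site of each library lies 36959 bp beyond the gene.

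Sox9 (chromosome 11, 112782210 to 112787757) stands with no other protein-coding gene inside its window. Its lower-coordinate end carried the strongest site of the locus, at chr11:112781462-112782970. The pileup there was 100 fragments in control progenitors, 85 in control day 1 and 45 in Seh1cKO cells, or 4.27, 4.65 and 4.15 FPM. The 3 libraries were thus close to each other at this site. The ratio of control day 1 to progenitors was 1.09 (0.81 to 1.47) and that of Seh1cKO to control day 1 was 0.89 (0.61 to 1.29). Its width was 1102, 1273 and 1011 bp.

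Only 2 further Sox9 sites were called in every library, both on the higher-coordinate side. The first, at chr11:112810948-112811973 and 23191 bp beyond the gene, had 1.32, 2.19 and 2.40 FPM. It was lowest in progenitors and alike in both day 1 libraries. The ratio of control day 1 to progenitors was 1.65 (1.01 to 2.73) and that of Seh1cKO to control day 1 was 1.09 (0.64 to 1.84). The interval of the first ratio included the genome-wide median of 1.34, and 71.9% of all sites called in both controls had a lower ratio. The second, 30143 bp beyond the gene, had 0.94, 1.10 and 1.01 FPM and close levels in the 3 libraries. A site inside the gene, at chr11:112785040-112785335, was called in the controls at 1.11 and 1.31 FPM and not in Seh1cKO cells. At the depth of the Seh1cKO library its control day 1 pileup would have been 14.3 fragments, against about 14 needed for a call there, so this absence lies at the limit of detection.

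The pileup needed for a call was estimated from the weakest p-value in a list and the local background at the nearest peak of that list, where such a peak lay within 10000 bp. The other 13 Sox9 sites were called in a single control library, 7 in progenitors and 6 at day 1, at no more than 0.71 FPM. These are small, narrow peaks close to the lowest pileup that the caller accepted.

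Sox10 (chromosome 15, 79154913 to 79164490) lies in a gene-rich stretch, after Micall1, 1700088E04Rik and Polr2f and before Gm10863. Polr2f encodes a subunit shared by the RNA polymerases, and Gm10863 is a long non-coding RNA that spans most of the higher-coordinate flank. Inside the gene body only 2 sites were called, neither of them in Seh1cKO cells. The site that covers the higher-coordinate end of Sox10, chr15:79164312-79164842, had 31 fragments in control progenitors and 32 in control day 1, or 1.32 and 1.75 FPM. Scaled to the Seh1cKO depth this is 19.0 fragments, above the 10 estimated to be needed. Of all control day 1 sites in the same decile of −log10 q, however, only 56.5% have a Seh1cKO peak. The second site in the gene body, at chr15:79162949-79163052, was a narrow peak of control day 1 only, at 1.15 FPM.

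The nearest shared sites flank Sox10 on both sides. On the lower-coordinate side, 1464 bp from the gene and reaching the end of Polr2f, the site chr15:79151731-79153449 had 4.02, 3.78 and 2.58 FPM. It was lowest in Seh1cKO cells, at a ratio to control day 1 of 0.68 (0.42 to 1.07), and its width was 1430, 1606 and 1016 bp. On the higher-coordinate side, 817 bp from the gene, the site chr15:79165307-79166137 held the listed start of Gm10863 and had 2.82, 2.25 and 1.94 FPM. Both ratios of neighbouring groups there, 0.80 (0.53 to 1.19) and 0.86 (0.48 to 1.49), had intervals that included 1.

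Far beyond the higher-coordinate end, inside Gm10863, stood the site with the highest level of the locus in each library. At chr15:79201449-79202413, 36959 bp beyond the gene, the pileup was 108 fragments in control progenitors, 114 in control day 1 and 33 in Seh1cKO cells. That is 4.61, 6.24 and 3.04 FPM, the highest control day 1 level of all 62 sites. The level was highest in control day 1 and lowest in Seh1cKO cells, with ratios of 1.35 (1.03 to 1.78) and 0.49 (0.32 to 0.72). The rise from progenitors lay near the middle of the genome: 51.0% of all sites called in both controls had a lower ratio. The adjoining site chr15:79202417-79203084 had 78, 78 and 20 fragments, or 3.33, 4.27 and 1.84 FPM, and showed the same order. Its ratio of Seh1cKO to control day 1 was 0.43 (0.25 to 0.71). The fold enrichment over local background, as the authors called it, went from 9.45 to 6.24 at the first and from 6.39 to 3.82 at the second. It is computed from the same pileup, so it is no separate check, and its median ratio over the genome was 0.85. FPM ratios as low as at this pair were not rare. Of all sites called in both day 1 libraries 9.47% had a ratio below that of the first site and 6.41% below that of the second. Of sites in the same decile of control day 1 strength the shares were 20.0% and 15.0%.

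The site chr15:79192637-79193867, 28147 bp beyond Sox10, behaved differently. It had 104 fragments in control progenitors, 52 in control day 1 and 32 in Seh1cKO cells, or 4.44, 2.85 and 2.95 FPM. Here the progenitor library was high and both day 1 libraries were alike. The ratio of control day 1 to progenitors was 0.64 (0.45 to 0.90), and 2.93% of all sites called in both controls had a lower one. It was the only SoxE site below 1/1.5, a fold reached downwards by 3.75% of sites over the genome.

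Other shared Sox10 sites were lower or varied within their counting intervals. The site 48131 bp beyond the gene had 2.78, 2.63 and 1.75 FPM, and the site 11273 bp beyond it had 0.94, 1.59 and 0.83. Their ratios of Seh1cKO to control day 1 were 0.67 (0.37 to 1.16) and 0.52 (0.22 to 1.13). On the other side, the shared start region of Polr2f and 1700088E04Rik, chr15:79140993-79141652, had 1.75, 1.75 and 2.86 FPM. This start region was highest in Seh1cKO cells, at a ratio of 1.63 (0.96 to 2.76), and 97.1% of sites in its decile had a lower one. The 2 weak sites at the lower-coordinate end of Micall1 also had ratios above 1.5, on 9 and 12 fragments in Seh1cKO cells.

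Sox8 (chromosome 17, 25565893 to 25570686, minus strand) neighbours the long non-coding RNA Cerox1 and Lmf1, a gene for a lipase maturation factor. The site over the start of Sox8, chr17:25570403-25571082, also holds the start of Cerox1, so the openness of either start cannot be assigned. It had 47 fragments in control progenitors, 51 in control day 1 and 34 in Seh1cKO cells, or 2.01, 2.79 and 3.13 FPM. The order of the levels followed that of the libraries, but each step lay within the counting error, at ratios of 1.39 (0.92 to 2.11) and 1.12 (0.71 to 1.77). The width was 641, 680 and 517 bp. Of the sites that touch the Sox8 gene body this was the only one called in Seh1cKO cells. A site in the body, chr17:25567814-25568379, was called in the controls at 1.62 and 1.70 FPM, and a neighbour was called in progenitors only at 1.37.

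The start regions of Sox8, Lmf1, Polr2f and Gm10863 fall in shared sites, and their RefSeq promoter sequences of GRCm38.p6 are shown so that base composition and motifs can be read beside the levels. Each runs 5′ to 3′ on the strand of its gene, from 250 bases before the listed start through 50 bases from it. Sox8 covers chr17:25570637-25570936 on the minus strand, Lmf1 chr17:25578924-25579223, Polr2f chr15:79141075-79141374 and Gm10863 chr15:79165816-79166115 on the plus strand. Capitals mark matches on either strand to the motifs searched.
Sox8: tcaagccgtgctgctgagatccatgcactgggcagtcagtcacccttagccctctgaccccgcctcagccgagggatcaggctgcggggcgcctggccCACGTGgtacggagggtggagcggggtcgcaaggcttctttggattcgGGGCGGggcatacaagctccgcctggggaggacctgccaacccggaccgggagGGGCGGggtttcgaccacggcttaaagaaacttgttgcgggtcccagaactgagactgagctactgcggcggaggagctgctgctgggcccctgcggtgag
Lmf1: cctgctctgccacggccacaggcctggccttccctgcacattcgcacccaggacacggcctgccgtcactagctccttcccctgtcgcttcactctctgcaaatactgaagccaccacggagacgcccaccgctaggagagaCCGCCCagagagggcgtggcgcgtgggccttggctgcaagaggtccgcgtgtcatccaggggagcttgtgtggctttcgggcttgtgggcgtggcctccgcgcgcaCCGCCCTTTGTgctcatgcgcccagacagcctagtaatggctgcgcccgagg
Polr2f: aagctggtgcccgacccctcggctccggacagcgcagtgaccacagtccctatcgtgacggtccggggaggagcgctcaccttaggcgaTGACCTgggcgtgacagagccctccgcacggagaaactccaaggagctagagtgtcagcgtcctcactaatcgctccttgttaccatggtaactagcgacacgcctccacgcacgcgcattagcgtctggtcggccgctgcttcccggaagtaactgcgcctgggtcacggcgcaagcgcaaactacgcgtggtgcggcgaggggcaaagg
Gm10863: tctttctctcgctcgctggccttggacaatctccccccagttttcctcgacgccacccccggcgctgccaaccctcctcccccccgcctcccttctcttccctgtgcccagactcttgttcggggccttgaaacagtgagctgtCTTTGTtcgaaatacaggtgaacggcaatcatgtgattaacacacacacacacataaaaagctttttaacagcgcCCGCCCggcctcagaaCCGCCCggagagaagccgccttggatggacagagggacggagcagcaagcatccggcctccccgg

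All 4 sequences are rich in G and C, at 66.3%, 66.3%, 63.7% and 59.3% in the order printed, with 21, 23, 31 and 19 CpG dinucleotides. The medians over 32851 listed promoter windows are 52.7% and 7. Motifs were searched on both strands. Of the SOX core, the form ACAAAG occurs in 18.7% of all windows of this length and the form ACAATG in 12.6%. Of the E-boxes, CAGCTG occurs in 16.3%, the form CATATG in 3.91% and the form CACGTG in 7.15%. The nuclear receptor core AGGTCA occurs in 16.3% and the GC box GGGCGG in 35.7%. Sox8 holds GGGCGG at 2 places and CACGTG at 1, and no SOX core. Lmf1 holds ACAAAG once on the reverse strand, sharing a base with 1 of its 2 GC boxes on that strand. Gm10863, next to Sox10, holds ACAAAG once and GGGCGG at 2 places on the reverse strand. Polr2f holds AGGTCA once, on the reverse strand. A match describes the letters and is no evidence of binding.

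Around Sox8 the levels of the shared sites differed in direction. Of the 8 Sox8 sites called in both day 1 libraries, 3 had a ratio of Seh1cKO to control day 1 with an interval wholly below 1 and none wholly above it. The site chr17:25556012-25557296, 8597 bp beyond the lower-coordinate end, had 60, 82 and 23 fragments, or 2.56, 4.49 and 2.12 FPM. Control day 1 stood above both others, at 1.75 times progenitors (1.24 to 2.49), and Seh1cKO cells at 0.47 times control day 1 (0.28 to 0.76). Of all sites called in both controls 76.8% had a lower ratio of control day 1 to progenitors. Of sites in the same decile 18.8% had a lower ratio of Seh1cKO to control day 1. The site 3901 bp beyond the same end had 1.62, 2.46 and 3.41 FPM, highest in Seh1cKO cells. Its ratio of Seh1cKO to control day 1, 1.38 (0.87 to 2.19), had an interval that included 1. Within Lmf1, the site chr17:25608265-25609303 had 3.42, 3.29 and 1.84 FPM, with alike controls and a low Seh1cKO level at a ratio of 0.56 (0.32 to 0.94).

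The start of Lmf1, chr17:25578944-25579544, had 1.79, 3.01 and 4.24 FPM and was lowest in progenitors. The ratio of control day 1 to progenitors was 1.68 (1.10 to 2.57) and of Seh1cKO to control day 1 was 1.41 (0.93 to 2.12). For the first ratio, 73.3% of all sites called in both controls were lower. The start of Gm33727, a long non-coding RNA gene at the far lower-coordinate edge of the window, had 2.73, 3.72 and 2.67 FPM. The faintest shared site, in Lmf1 and 47850 bp from Sox8, had 0.98, 1.04 and 0.83.

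A pair of strong Sox8 sites lacked a call in 1 library. The site chr17:25575368-25576124, 4682 bp beyond the start side of Sox8, had 35 fragments in control progenitors and 55 in control day 1, or 1.495 and 3.01 FPM. Its ratio of control day 1 to progenitors, 2.01 (1.29 to 3.17), was the highest of the 26 SoxE sites called in both controls. Over the genome 85.8% of such sites had a lower ratio. No Seh1cKO peak was called, although the control pileup scaled to that depth is 32.7 fragments, against 12 estimated to be needed. In its decile of control day 1 strength 81.1% of sites over the genome have a Seh1cKO peak. The site chr17:25519477-25519858 in Gm33727 had 51 fragments in control day 1 and 13 in Seh1cKO cells, at 2.79 and 1.199 FPM, and no progenitor peak. Scaled to the progenitor depth it would have had 65.4 fragments against 12 needed. In the second-strongest decile of control day 1 sites, where it falls, 89.8% have a progenitor peak. A peak table gives no level where no peak was called, so the level at these sites in the library without a call is not known.

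**Figure D2:**
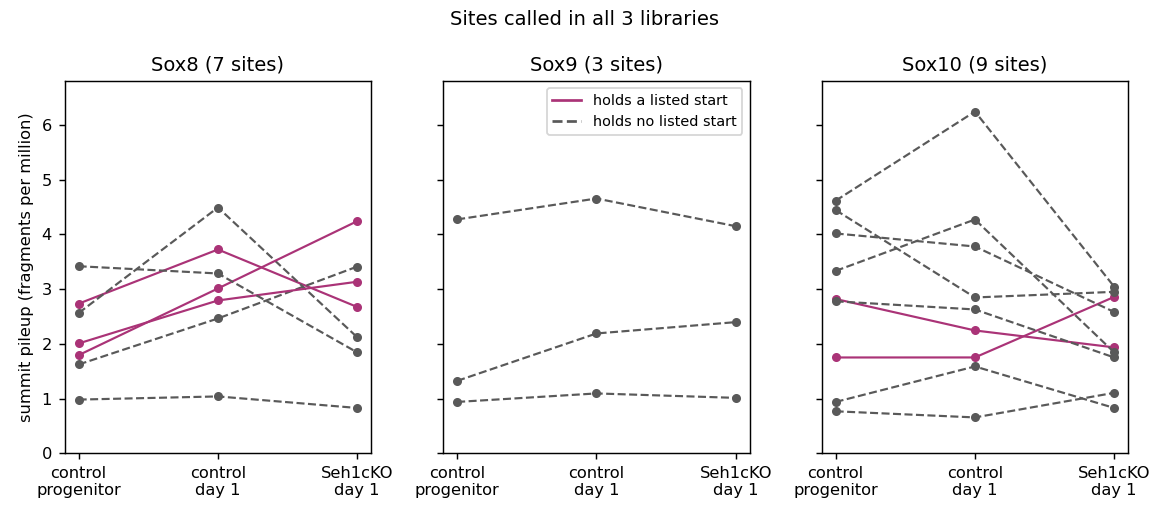
Summit pileup in FPM (y axis) in the 3 libraries (x axis) at the 7 Sox8, 3 Sox9 and 9 Sox10 sites called in every library, 1 line per site, with solid lines for sites that hold a gene start listed in RefSeq promoters and dashed lines for the others. The tallest Sox10 site goes from 4.61 to 6.24 and then to 3.04, while the tallest Sox9 site stays between 4.15 and 4.65.

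The first comparison, of control day 1 with control progenitors, covers the start of differentiation under T3. Of 44 control day 1 SoxE sites 26 (59.1%, Clopper-Pearson 95% interval 43.2 to 73.7) had a progenitor peak, beside 38.9% of all control day 1 sites. By gene this was 12 of 16 at Sox8, 4 of 10 at Sox9 and 10 of 18 at Sox10. Presence followed strength: summing the genome-wide share of each site's strength decile gives 23.9 sites. In the strongest 3 deciles 21 of 22 had a progenitor peak (87.0% over the genome), and in the weakest 5 deciles 3 of 14 (9.36%). In the other direction 26 of 44 progenitor sites had a control day 1 peak, beside 42.6% over the genome, and the decile shares add up to 26.1. All 22 in the strongest 3 deciles had one (93.2% over the genome).

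Levels at the 26 SoxE sites called in both controls had a median ratio of control day 1 to progenitors of 1.17, with a range of 0.64 to 2.01. The median over all such sites of the genome was 1.34. Sox8 sites were at 1.32 (12 sites), Sox9 sites at 1.17 (4 sites) and Sox10 sites at 0.97 (10 sites), so Sox8 lay near the genome-wide shift and Sox10 below it. Divided instead by each library's median over shared sites, the Sox10 median was 0.70 beside 0.96 over the genome. That scaling multiplies all these ratios by the same factor, so it cannot change their order. By fold enrichment the Sox10 median was 1.01 and that of Sox8 0.96, beside 1.12 over the genome. With 500000 bp on either side the Sox10 median was 1.33, at the genome-wide value. A ratio of 1.5 or more was found at 6 of 26 sites, beside 37.7% over the genome, and 4 of them lay around Sox8. The counting interval was wholly above 1 at 5 sites, beside 28% over the genome, and wholly below 1 at 1 site, beside 1.49%. Whether the genome-wide shift above 1 belongs to the stage or to signal over background in 1 library cannot be told apart.

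The second comparison, of Seh1cKO with control cells at day 1, asks what the loss of Seh1 goes with at the same time of culture. Of the 44 control day 1 SoxE sites 21 (47.7%, 32.5 to 63.3) had a Seh1cKO peak, beside 31.1% of all control day 1 sites. The counts were 8 of 16 at Sox8, 3 of 10 at Sox9 and 10 of 18 at Sox10. The shares of their strength deciles add up to 20.3 sites, and by gene to 8.72, 2.89 and 8.73, so the number kept was close to that of sites of like strength elsewhere. In the strongest 3 deciles 19 of 22 had a Seh1cKO peak (78.0% over the genome), and in the weakest 5 deciles 2 of 14 (4.96%). All 21 Seh1cKO sites had a control day 1 peak, beside 81.8% over the genome.

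**Figure D3:**
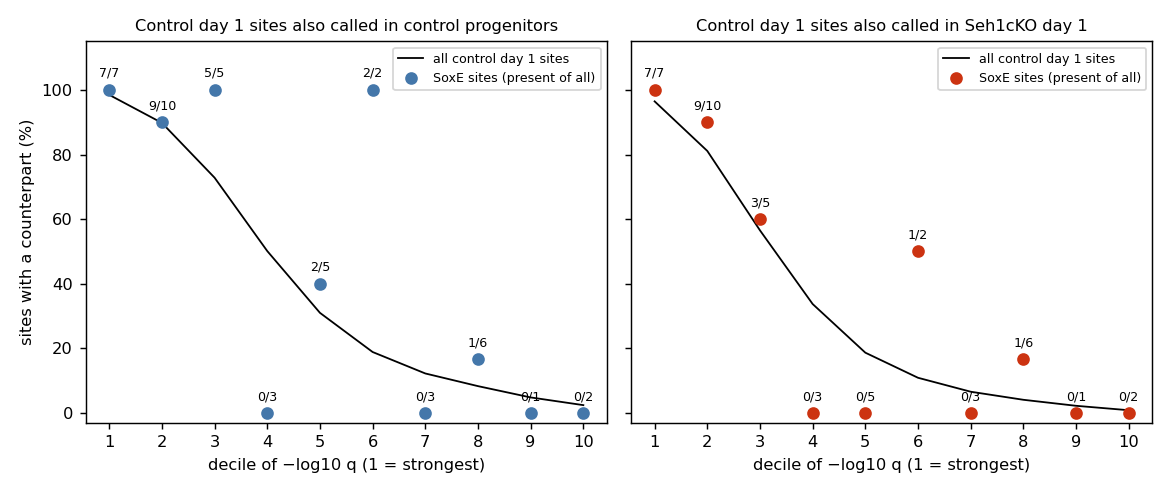
Percent of control day 1 sites with a peak in control progenitors (left) and in Seh1cKO cells (right) on the y axis, against the decile of −log10 q of the control day 1 list on the x axis, with the line for all sites and points for SoxE sites labelled as present over all. In the strongest decile 7 of 7 SoxE sites were present in both, and in the weakest 0 of 2.

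Of the 23 control day 1 SoxE sites with no Seh1cKO call, 19 had a Seh1cKO peak within 10000 bp that gave a local background. At 12 of these 19 the control pileup scaled to the Seh1cKO depth reached the level estimated to be needed. These 12 include 5 Sox8 sites, 2 Sox9 sites and 5 Sox10 sites. The estimate leaves out the caller's minimum length of 100 bp and the scatter of counts, so it is a description and not a count of lost sites. It was made at SoxE sites only, so no share over the genome stands beside it. Whether 12 of 19 is usual for sites of this strength is therefore not known. Between the controls the same estimate gave 17 of 18 for control day 1 sites without a progenitor call and 9 of 18 for the reverse. Absence of a call above this level thus also occurred between the controls. Progenitor depth was 128% of that of control day 1, so scaling raised the pileups in the first count and lowered them in the second. The first count is therefore not comparable with that for Seh1cKO cells, where scaling lowered the pileups.

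At the 21 SoxE sites called in both day 1 libraries the median ratio of Seh1cKO to control day 1 was 0.86, with a range of 0.43 to 1.68, beside 0.91 over the genome. It was 0.76 at Sox8 (8 sites), 0.93 at Sox9 (3 sites) and 0.77 at Sox10 (10 sites). These medians rest on few sites: within 10000 bp of the gene the Sox8 median was 1.25, and by fold enrichment the Sox10 median was 0.88 beside 0.85 over the genome. A ratio of 1/1.5 or less was found at 7 of 21 sites, 3 around Sox8 and 4 around Sox10, beside 23.8% over the genome. A ratio of 1.5 or more was found at 3 sites, all around Sox10, beside 8.92%. The counting interval lay wholly below 1 at 5 sites, namely 3 of Sox8 and the adjoining pair of Sox10 sites, beside 13.7% over the genome. It lay wholly above 1 at none, beside 3.04%.

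Medians differed by the kind of site, a difference that was not tested. At the 5 sites of the SoxE loci with a listed start of any gene the median ratio was 1.12, and at the 16 others it was 0.74. Both kinds held sites on either side of 1, and the counting intervals of all 5 start sites included 1. The genome showed a difference of the same sign. Over all sites called in both day 1 libraries the median was 1.00 with a listed start and 0.87 without one. Sox9 and Sox10 are not among the listed starts, so only the site of Sox8 and Cerox1 holds the start of a SoxE gene. The other start sites belong to Gm33727, Lmf1, Polr2f with 1700088E04Rik, and Gm10863. The site at the lower-coordinate end of Sox9, at a ratio of 0.89, counts among those without a listed start. The medians therefore do not compare SoxE starts with distant sites. None of the 5 sites with an interval below 1 holds a listed start.

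**Figure D4:**
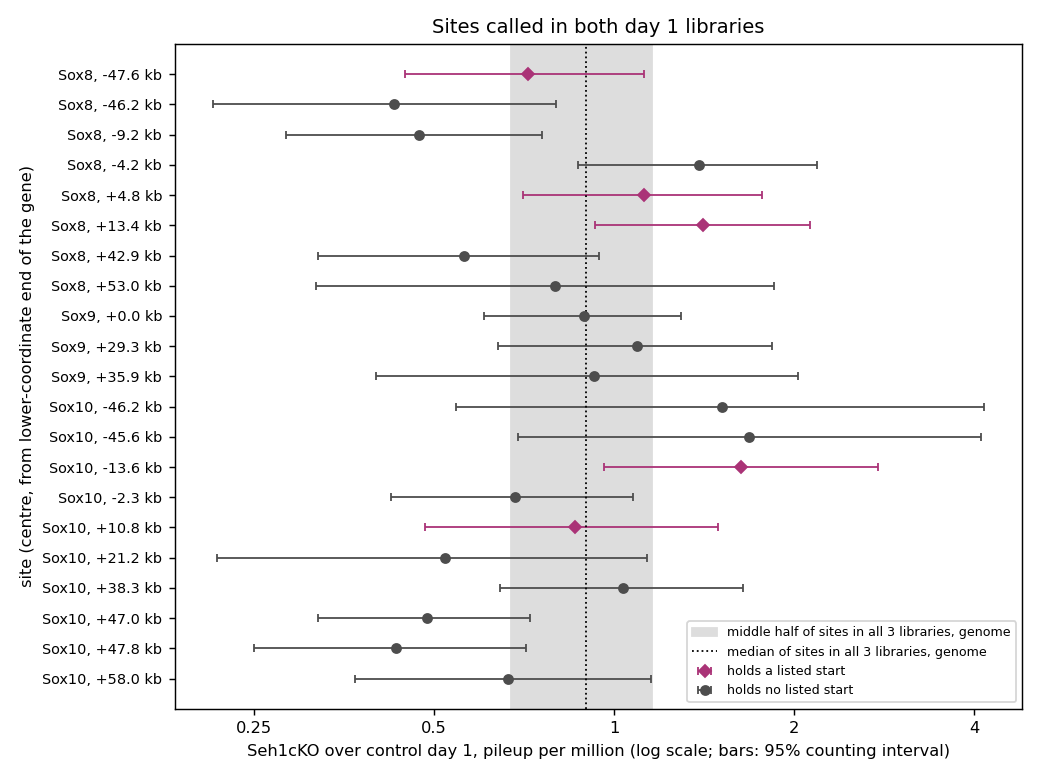
Ratio of Seh1cKO to control day 1 FPM on a log x axis for the 21 SoxE sites called in both libraries (y axis, by gene and distance of the site centre from the lower-coordinate gene end), with bars for the 95% counting interval, and the median (dotted) and the middle 25th to 75th percentile range (grey) of sites called in all 3 libraries over the genome. The points run from 0.43 to 1.68, and the 5 intervals wholly below 1 are at Sox8 and Sox10.

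Widths at SoxE sites were near those of the genome. At the 21 sites the median width ratio of Seh1cKO to control day 1 was 0.79, beside 0.80 over the genome. Seh1cKO peaks were the narrower at 14 of 21, beside 75.5% over the genome. Medians by gene were 0.89 at Sox8, 0.79 at Sox9 and 0.79 at Sox10. The tallest Sox10 site went the other way, at 623 bp in control day 1 and 830 bp in Seh1cKO cells, while its adjoining site went from 622 to 410 bp. The first site ends at 79202413 and the second starts at 79202417. Whether the border between their peaks shifted was not tested, so these widths are not to be read as 2 separate changes. Between the controls the day 1 peak was the narrower at 13 of 26 sites, beside 44.5%.

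Each SoxE gene had a peak within 1000 bp of its listed start or gene ends in all 3 libraries, as did 55.7% of 21887 protein-coding genes. Over genes with such a peak in all 3, the median ratio was 1.39 for control day 1 to progenitors and 1.00 for Seh1cKO to control day 1. For Sox10 the strongest such peak is that at the start of Gm10863, so it does not measure Sox10 alone. In Seh1cKO cells it is the only such peak, since the site that covers the Sox10 end had no call there. Ordered by level in control day 1, the strongest peak was at Sox9 (4.65 FPM), then Sox8 (2.79) and Sox10 (2.25). By Euclidean distance of the 3 log2 levels, over 12201 genes, the nearest to Sox8 were Srxn1 (0.03), Stk4 (0.05) and Zfp563 (0.05). Near Sox9 were Upf3a (0.10) and Brinp1 (0.10), and the nearest to Sox10 were Fsbp (0.06), Trim2 (0.12) and Tafa2 (0.12). Each distance rests on 3 values per gene.

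Other genes of the pathway were counted in the same way. Among 5 other Sox genes, the SoxD members Sox5, Sox6 and Sox13 and the SoxC members Sox4 and Sox11, 4 had a gene-end peak in every library and Sox5 in none. Of 12 factors that act with SoxE proteins in the lineage, 11, 11 and 10 had one in the order of the libraries. Of 16 genes known as SoxE targets or linked to them, 10, 12 and 8 had one, beside 62.3%, 63.1% and 57.7% of all protein-coding genes. Around the targets 29.3% of sites were shared by all 3 libraries, around the lineage factors 22.6% and around the other Sox genes 21.1%, beside the 30.6% at the SoxE genes.

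Some genes of these lists had a peak in some libraries and not in others. Gjb1, which encodes a gap junction protein, had 1.79 FPM in control progenitors and 1.15 in control day 1, with no Seh1cKO peak. Mog and Mal, both myelin membrane proteins, had a peak in control day 1 only, at 1.10 and 0.93. Pdgfra, the growth factor receptor that marks progenitors, had 1.54 in control progenitors and 1.48 in Seh1cKO cells and no call in control day 1. A missing call does not show a closed start.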

How the data were processed

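ATAC-seq was measured in 3 libraries, 1 per group. The authors used Bowtie2, SAMtools, MACS2 and the build mm10, per the submitters' processing notes. Each library had its own peaks, called with MACS 2.1.2_dev from paired-end fragments with duplicates kept and without a control library. The q cutoff was 0.05, the largest gap 50 bp, the shortest peak 100 bp, the local background window 10000 bp and the genome size 1.87e+09, per the file headers. Keeping duplicates lets amplified copies add to a pileup. Neither shifting of reads for the transposase nor removal of artefact regions is described in the sources used here. For each peak the authors deposited its position, length, summit pileup (signal, in fragments) and fold enrichment (a ratio to local background). They also deposited −log10 p-values and −log10 q-values, in columns whose names are damaged. Which is which was checked against Poisson p-values computed from pileup and fold enrichment. These matched within 0.01 for 99.9% or more of the peaks of a list.

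Overlapping peaks (at least 1 bp) of the 3 lists were joined into sites over the whole genome, and the highest peak of a library in a site gave its level. Pileups were scaled to 1000000 fragments (FPM) with the totals in the file headers. Ratios have exact conditional binomial intervals and shares Clopper-Pearson intervals, both at 95%. The lowest pileup called was 9, 8 and 6 fragments in control progenitors, control day 1 and Seh1cKO cells, which limits what each library can show. Gene positions and promoter sequences came from RefSeq tables of GRCm38.p6, whose main chromosomes share the coordinates of mm10. The interval and site calculations were tested on simulated data. Python 3.11.15, pandas 2.3.3, scipy 1.17.1 and matplotlib 3.10.9 were used.

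The 3 genes, the marker and pathway lists and the comparisons were chosen with earlier results of these data known. Pathway genes were named by rule: at most 5 whose gene-end presence differs between libraries, strongest −log10 q first. For each SoxE gene the rule names the 3 nearest protein-coding genes by log2 level at gene ends. Some genes that these rules name are not reported here. Alternatives for overlap, peak threshold, list length, locus size, scaling and gene-end window were run. Labels say nothing of separate cultures or animals within a group.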

Additional observations from a re-analysis of the deposited data

How the results depend on the processing

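There were 170 alternatives over 31 values, of which 123 stayed within the spread set for them and 47 moved, and none turned a call, since with 1 library per group there is no test. The size of the locus sets the counts. With 10000, 100000 and 500000 bp on either side there were 10, 37 and 149 sites at Sox8, 5, 28 and 111 at Sox9, 7, 41 and 183 at Sox10, and 22, 106 and 443 in all. Sites in all 3 libraries then numbered 4, 12 and 44 at Sox8, 1, 5 and 23 at Sox9, 2, 16 and 50 at Sox10, and 7, 33 and 117 in all. The 500000 bp window, and a −log10 q of at least 5 for widths, were chosen after seeing the data. At a −log10 q of 5 or more, 5 Sox9 sites, 13 Sox10 sites and 32 sites in all were left, and with lists of equal length (46113 peaks) 4, 15 and 33.

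Weak peaks set the shares. Control day 1 sites with a progenitor peak rose to 75% at Sox9 and 79.3% in all at a −log10 q of at least 5 (59.8% over the genome). With equal lists they rose to 100% at Sox9, 81.8% at Sox10 and 84% in all (69.3% over the genome). Those with a Seh1cKO peak rose to 75% at Sox9 at the stricter threshold (43.4% over the genome). With equal lists they rose to 100% at Sox9 and 76% in all (67.7% over the genome).

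Scaling sets the level of the ratios. With each pileup divided by its library's median over sites called in all 3, the median ratio of control day 1 to progenitors was 0.95 at Sox8, 0.84 at Sox9, 0.70 at Sox10 and 0.84 in all, beside 0.96 over the genome. With fold enrichment it was 0.96 at Sox8, 0.95 at Sox9 and 0.99 in all, beside 1.12 over the genome. Median scaling multiplies every ratio between a pair of libraries by the same factor. It therefore cannot change the order of a locus and the genome. With fold enrichment, which can, the Sox10 median was 1.01, below the genome-wide median. The ratio of Seh1cKO to control day 1 at Sox9 was 1.16 under median scaling (1.14 over the genome) and 0.89 with fold enrichment (0.85). Each SoxE gene had a gene-end peak in 3 libraries under every gene-end alternative run, though for Sox10 no Seh1cKO peak touched the gene body. No paired analysis was possible because each group has 1 library and no test was made. Depth limits the Seh1cKO library most: at 59.4% of the control day 1 fragments, sites below its callable pileup were not detectable.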
